A study of Mus musculus with 14 samples.

Results

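Mice with a kinase-dead IRAK4 and no lupus background were compared with C57BL/6 mice in the hippocampus. The comparison was chosen by the labels and rests on 6 of the 14 libraries of the study, 3 labelled IRAK4-KD and 3 labelled C57BL/6. It covers all genes, and 38070 of the 55536 Ensembl genes had at least 10 counts over the 14 libraries and were tested. Both groups were 10 months old, no treatment is named for either, and the mice were perfused before dissection. IRAK4-KD mice carry IRAK4 without kinase activity on a C57BL/6 background, and C57BL/6 mice (genotype label C57BL6/J) carry the intact kinase. The C57BL/6 mice were bought from a supplier, whereas the IRAK4-KD line came from another laboratory, so the mutation and the origin of the line cannot be told apart. The remaining 8 libraries, 4 MRL (B6.MRL-Faslpr, lupus-prone) and 4 MRL-IRAK4-KD (the same mice with the mutation), shared the fit and are given only beside single results.

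IRAK4 is a serine/threonine kinase. When a Toll-like receptor or the interleukin-1 receptor is engaged, the adaptor MyD88 assembles with IRAK4 and then IRAK1 or IRAK2 into the Myddosome, from which TRAF6 activates NF-kappa-B and the MAP kinases. In the brain these receptors are best known on microglia, astrocytes and endothelium, and in the hippocampus interleukin-1 signalling is also known to act on memory and synaptic plasticity.

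The C57BL/6 libraries held 279941472 to 401326171 counts each, and the IRAK4-KD libraries 393222559 to 544371823. These StringTie counts amounted to 1.80 to 1.92 for every read that the core's sheet lists and therefore overstate the number of reads. Levels are given in CPM, the counts scaled to a common library size with TMM factors. Among the 6 libraries, the first principal component held 35.17% of the variance, with C57BL/6 libraries at scores of -30.8 to -11.4 and IRAK4-KD libraries at 14.7 to 24.6. The tissue label was checked against hippocampal subfield markers, 34 of 35 of which were tested. Their summed level was 3434, 3112 and 3539 CPM in C57BL/6 and 4063, 3552 and 3785 CPM in IRAK4-KD libraries. All IRAK4-KD libraries thus lay above the C57BL/6 range, and whether the dissections differed between the groups was not tested. In the 6 libraries Prox1 of the dentate gyrus was at 55.9 to 125 CPM and Wfs1 of CA1 at 80.0 to 118 CPM.

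The mutated gene was read first. Irak4 (ENSMUSG00000059883.16, mm10 chromosome 15, 94543643 to 94581815) had 2.36, 1.81 and 2.31 CPM in C57BL/6 and 2.04, 2.53 and 2.23 CPM in IRAK4-KD mice. The groups overlapped, with a log2 fold change of 0.07 (SE 0.19, adjusted p = 1), and gene counts do not show whether the kinase domain is mutated. Fas, which carries the lpr mutation of MRL mice, had 1.60, 1.22 and 1.10 CPM in C57BL/6 and 0.912, 0.986 and 0.935 CPM in IRAK4-KD mice. Its full-length transcript had 584, 345 and 440 counts in C57BL/6 and 360 and 386 counts in IRAK4-KD replicates 1 and 2, but 0 counts in replicate 3. The shorter Fas transcript, which had 268 to 964 counts across the 8 lupus-prone libraries, had 514 counts there and at most 7 in the other C57BL/6 and IRAK4-KD libraries. The library labelled IRAK4-KD replicate 3 thus goes against its label at Fas, and the calls are also given without it.

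Of 38070 genes, 56 (0.147%) differed between IRAK4-KD and C57BL/6 mice at an adjusted p under 0.05 in edgeR's quasi-likelihood test. Of these, 14 (0.0368% of the genes tested) were higher and 42 (0.11%) lower in IRAK4-KD mice. The absolute log2 fold change of the called genes ran from 0.67 to 6.98, while the median over all genes was -0.01. The 3 libraries of each group did not overlap at any of the 56 genes, as was the case for 11.2% of all genes tested. At an unadjusted p under 0.05 there were 1445 genes (3.8%). Without the library labelled IRAK4-KD replicate 3, 33 of 37711 genes (0.0875%) were called, 6 higher (0.0159%) and 27 lower (0.0716%), and 32 of them were among the 56. The further 1 was Map7d3, named here after its values were seen, with 37, 23 and 24 counts in C57BL/6 and 0, 0 and 15 counts in IRAK4-KD libraries. All 56 genes kept their direction and an unadjusted p under 0.05 without this library. At each of the 33 genes called from IRAK4-KD replicates 1 and 2, the omitted library lay outside the C57BL/6 range on the same side as these. Leaving out any 1 of the 6 libraries ended the calls of Tnip1, Limk2, Wdfy1, Col19a1, Amy1, Entpd4b and Olfr1346, 5 of these 6 fits ended those of Gabra2 and mt-Tr, and 2 ended those of Pttg1 and Pik3ip1.

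**Figure D1:**
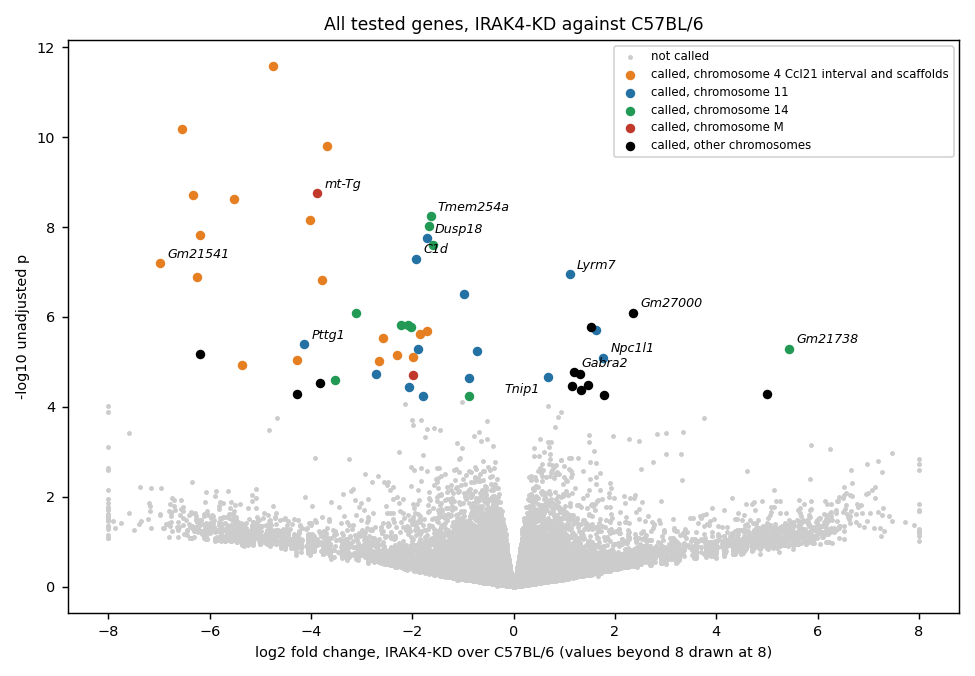
Each point is 1 of 38070 genes, with its log2 fold change (IRAK4-KD over C57BL/6) on the x axis and -log10 of the unadjusted p on the y axis. The 56 called genes are coloured by chromosome, and 42 of them lie on the left, lower in IRAK4-KD mice.

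The called genes were unevenly spread over the genome. Chromosome 4 held 16 of them, chromosome 11 held 14, chromosome 14 held 10 and chromosome 1 held 3. Chromosomes 7 and 8, the mitochondrial chromosome and an unplaced scaffold held 2 each. Of 1369 genes tested on chromosome 15, which carries Irak4, 0 were called by edgeR, 4 by DESeq2 and 5 by limma-voom, and 56 had an unadjusted p under 0.05 (4.09%). Within 5 Mb of Irak4, 160 genes were tested, and 7 had an unadjusted p under 0.05 (4.38%, against 3.8% of all genes).

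**Figure D2:**
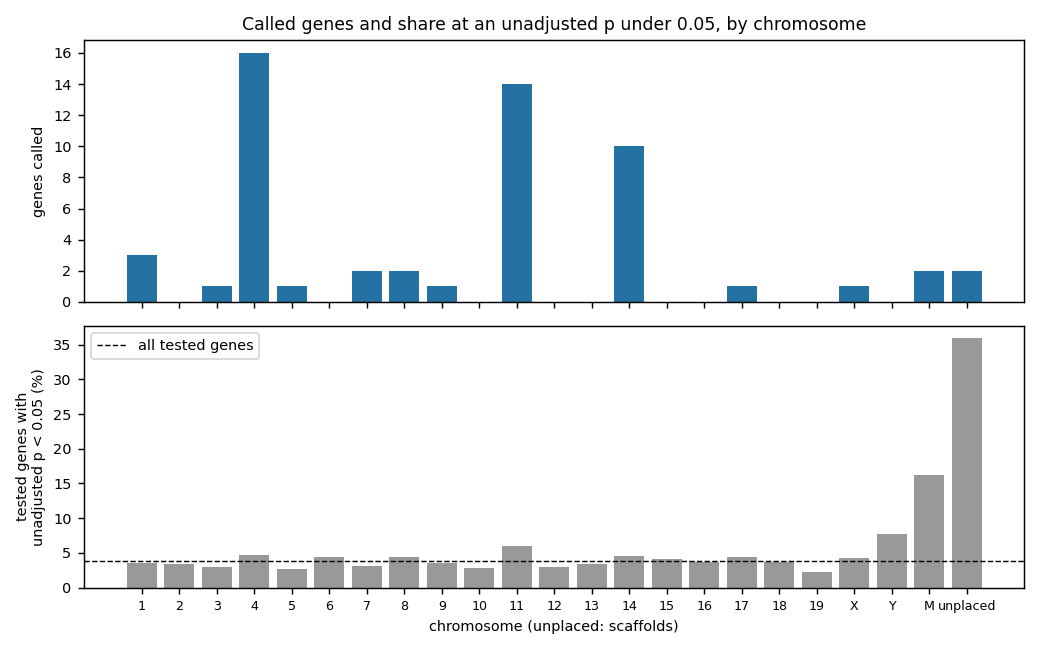
The upper bars count the called genes per chromosome, and the lower bars give the percentage of tested genes with an unadjusted p under 0.05, with the dashed line at the 3.8% of all genes. Chromosomes 4, 11 and 14 carry 16, 14 and 10 of the 56 calls, and the share is 6.0% on chromosome 11, 16.2% of 37 genes on the mitochondrial chromosome and 35.9% of 39 genes on scaffolds.

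The largest departure outside chromosome 4 by p was at the gene of a mitochondrial transfer RNA. The transcripts of both called mitochondrial genes are shown because the calls rest on so few bases, with the messenger RNA between them not called. They are given 5′ to 3′ as DNA letters from GENCODE M21 (mm10, plus strand, chrM:9391-9458 and chrM:9808-9875), with the anticodon in capitals.
mt-Tg: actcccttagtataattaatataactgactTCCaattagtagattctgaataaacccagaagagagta
mt-Tr: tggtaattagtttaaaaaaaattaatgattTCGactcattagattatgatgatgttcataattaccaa

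mt-Tg, the mitochondrial transfer RNA for glycine, had 11.9, 9.49 and 12.5 CPM in C57BL/6 and 0.741, 0.821 and 0.746 CPM in IRAK4-KD mice. All 3 IRAK4-KD libraries were low and close to each other, including replicate 3. This is a log2 fold change of -3.88 (SE 0.28, adjusted p = 1.46e-05), or 14.7-fold less, and the adjusted p was 0.000479 without replicate 3. mt-Tr, the transfer RNA for arginine, had 10.7, 6.47 and 10.4 CPM in C57BL/6 and 2.36, 2.34 and 2.31 CPM in IRAK4-KD mice (log2 fold change -1.98, SE 0.31, adjusted p = 0.0173). Its call was lost without replicate 3 (adjusted p = 0.152). The libraries held poly(A) RNA, and the reads that the paper describes are longer than the 68 bases of either gene. Counts of these and other transfer RNA genes may thus come from longer RNAs that cover them. Whether mature transfer RNA differed was not tested.

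The 2 genes lie on either side of mt-Nd3, which encodes a subunit of respiratory complex I. mt-Nd3 itself had 709, 750 and 741 CPM in C57BL/6 and 507, 621 and 514 CPM in IRAK4-KD mice and did not pass the test (log2 fold change -0.42, adjusted p = 1). None of the 13 mitochondrial protein-coding genes was called by edgeR, DESeq2 or limma-voom or had an unadjusted p under 0.05, whereas 2 of the 22 transfer RNAs were called and 6 had an unadjusted p under 0.05. Among these 6, mt-Ti and mt-Tq, the transfer RNAs for isoleucine and glutamine, went the other way. They lie beside each other but away from mt-Nd3. mt-Ti had 10.6, 11.6 and 11.2 CPM in C57BL/6 and 28.9, 53.5 and 20.4 CPM in IRAK4-KD mice (log2 fold change 1.62, adjusted p = 0.539). mt-Tq had 9.66, 10.3 and 10.2 CPM against 18, 31.5 and 15 CPM (log2 fold change 1.09, adjusted p = 0.471). Neither passed the test although the groups did not overlap.

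In the lupus background, mt-Tg was at 8.33 to 14.6 CPM in MRL and 7.57 to 13.7 CPM in MRL-IRAK4-KD mice, on both sides of the C57BL/6 levels and all above the IRAK4-KD levels. It was the only gene of 38070 (0.00263%) whose fold change differed between the backgrounds by edgeR, with a difference of -3.75 on the log2 scale (adjusted p = 0.00127). C1d, Dusp18 and Gm27000 came next, each at an adjusted p of 0.053 in the same test. At an unadjusted p under 0.05, 1588 genes (4.17%) had such a difference, and DESeq2 called 59 and limma-voom 22 genes.

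Chromosome 11 carried 14 called genes. Between Pik3ip1 and Tnip1, a span of 51.6 Mb named after the calls were seen, 13 of 641 tested genes were called. In this span 11.2% had an unadjusted p under 0.05, against 4.13% of the 1791 genes on the rest of the chromosome. Both ends of the span are called genes, so its choice partly fixes this contrast. The calls fell in several places rather than in a continuous block, among them 4 genes within 3330401 to 3901296, a pair near Npc1l1 and a pair at Lyrm7 and Tnip1. Of the 14 genes, 4 were higher and 10 lower in IRAK4-KD mice.

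Pttg1 (ENSMUSG00000020415.16, chromosome 11, 43420250 to 43426251), the securin that holds separase inactive until anaphase, showed the largest fall among them. It had 20.8, 21.4 and 23.8 CPM in C57BL/6 and 1.64, 0.976 and 1.14 CPM in IRAK4-KD mice. Levels in IRAK4-KD mice were thus 17.6-fold lower (log2 fold change -4.13, SE 0.56, adjusted p = 0.00525), and the adjusted p was 0.0677 without replicate 3. In MRL mice Pttg1 was at 22.2 to 24.0 CPM, and in MRL-IRAK4-KD mice 1 library, replicate 2, was low at 3.00 CPM while the others were at 25.8, 25.3 and 16.1 CPM. Its promoter is shown because the fall was close to loss of the transcript in all 3 libraries. It covers 250 bases before and 50 after the start (RefSeq, GRCm38.p6, chr11:43425932-43426231, minus strand, 5′ to 3′), with the bases from the start on in capitals.
Pttg1: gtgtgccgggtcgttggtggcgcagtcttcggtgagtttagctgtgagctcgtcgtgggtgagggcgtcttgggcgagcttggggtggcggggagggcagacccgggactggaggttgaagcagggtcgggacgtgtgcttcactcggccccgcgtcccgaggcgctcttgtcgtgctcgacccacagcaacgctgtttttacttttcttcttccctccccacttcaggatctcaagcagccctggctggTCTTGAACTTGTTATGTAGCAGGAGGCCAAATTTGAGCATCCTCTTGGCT

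Dusp18 (chromosome 11, 3895240 to 3901296), a dual-specificity phosphatase, had 42.3, 43.1 and 45.1 CPM in C57BL/6 and 13.6, 13.3 and 13.2 CPM in IRAK4-KD mice (log2 fold change -1.70, SE 0.15, adjusted p = 6.22e-05). C1d (chromosome 11, 17257579 to 17269176), a cofactor of the nuclear RNA exosome, had 37.5, 42.1 and 41.4 CPM against 10.3, 10.3 and 11.4 CPM (log2 fold change -1.92, SE 0.18, adjusted p = 0.00015). Both fell to a narrow band, and both stayed called without replicate 3 (adjusted p = 0.00151 and 0.00218). In MRL-IRAK4-KD mice, replicates 1 and 4 had 27.1 and 26.1 CPM of Dusp18 and 27.9 and 23.4 CPM of C1d, below replicates 2 and 3 at 35.9 and 40.1 CPM and at 41.1 and 40.7 CPM.

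Ccm2 (chromosome 11, 6546887 to 6596744), a scaffold protein of endothelial junctions whose loss causes cerebral cavernous malformations, had 24.9, 28.2 and 30.8 CPM in C57BL/6 and 14.1, 14.3 and 13.9 CPM in IRAK4-KD mice (log2 fold change -0.99, SE 0.11, adjusted p = 0.000658). Limk2, a kinase of the actin regulator cofilin, had 97.9, 104 and 104 CPM against 55.3, 58.8 and 52.4 CPM (log2 fold change -0.88, adjusted p = 0.0191). Pik3ip1, an inhibitor of phosphoinositide 3-kinase, had 36, 33.1 and 32 CPM against 21.6, 21.7 and 18.1 CPM (log2 fold change -0.72, adjusted p = 0.00677). All 3 fell by a smaller fold than Pttg1, Dusp18 and C1d. Without replicate 3, Ccm2 remained called (adjusted p = 0.0087) and Limk2 and Pik3ip1 did not (0.169 and 0.052).

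Higher levels on chromosome 11 were found for Npc1l1, Lyrm7, Tnip1 and the long non-coding RNA Gm39822. Npc1l1, the sterol transporter of intestinal cholesterol uptake, had 1.25, 1.16 and 1.32 CPM in C57BL/6 and 4.43, 4.22 and 4.05 CPM in IRAK4-KD mice (3.40-fold, log2 fold change 1.77, SE 0.26, adjusted p = 0.00865, and 0.0428 without replicate 3), but its call was lost in 4 of the 6 fits that left out 1 library, with an adjusted p of up to 0.0732. Lyrm7 (54826866 to 54860916), an assembly factor of respiratory complex III, had 14, 14.4 and 14.2 CPM against 30.4, 29.8 and 31.7 CPM (2.15-fold, log2 fold change 1.11, SE 0.11, adjusted p = 0.000289). Lyrm7 remained called without replicate 3 (adjusted p = 0.00328).

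Tnip1 (54910785 to 54962917) was the only called gene on the list of NF-kappa-B genes. It encodes ABIN1, a ubiquitin-binding protein that works with A20 to restrain NF-kappa-B. It had 17.2, 20.1 and 19.6 CPM in C57BL/6 and 30.8, 30.4 and 29.4 CPM in IRAK4-KD mice, which is 1.59-fold more (log2 fold change 0.67, SE 0.11, adjusted p = 0.0184, and 0.080 without replicate 3). Its promoter is shown with matches to the kappa-B motif in capitals (RefSeq, GRCm38.p6, chr11:54962891-54963190, minus strand, 5′ to 3′). The capitals hold 4 overlapping matches counted over both strands. Of all 32851 promoter windows of this length, 4.51% held the motif, and 2 of the 40 windows of the 29 called genes with an entry did, that of Tnip1 and 1 of Limk2.
Tnip1: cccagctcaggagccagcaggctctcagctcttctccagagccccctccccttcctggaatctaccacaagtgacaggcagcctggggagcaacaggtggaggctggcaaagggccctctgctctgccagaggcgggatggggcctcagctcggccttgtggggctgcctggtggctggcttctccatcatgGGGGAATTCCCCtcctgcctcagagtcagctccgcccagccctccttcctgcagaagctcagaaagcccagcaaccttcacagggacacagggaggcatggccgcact

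Among the 56 genes, the 3 outside the Ccl21 region that were also called between MRL-IRAK4-KD and MRL mice were Lyrm7, Tnip1 and Gm39822. Lyrm7 was at 12.9 to 14.7 CPM in MRL and 23.9 to 31.3 CPM in MRL-IRAK4-KD mice, and Tnip1 at 17.6 to 18.6 CPM and 24.7 to 31.2 CPM. Their log2 fold changes in the lupus background were 1.04 (adjusted p = 0.000144) and 0.65 (adjusted p = 0.00934). Gm39822 had 2.1, 2.59 and 2.83 CPM in C57BL/6 and 8.40, 7.76 and 7.07 CPM in IRAK4-KD mice, and a log2 fold change of 1.35 in the lupus background (adjusted p = 0.00465).

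**Figure D3:**
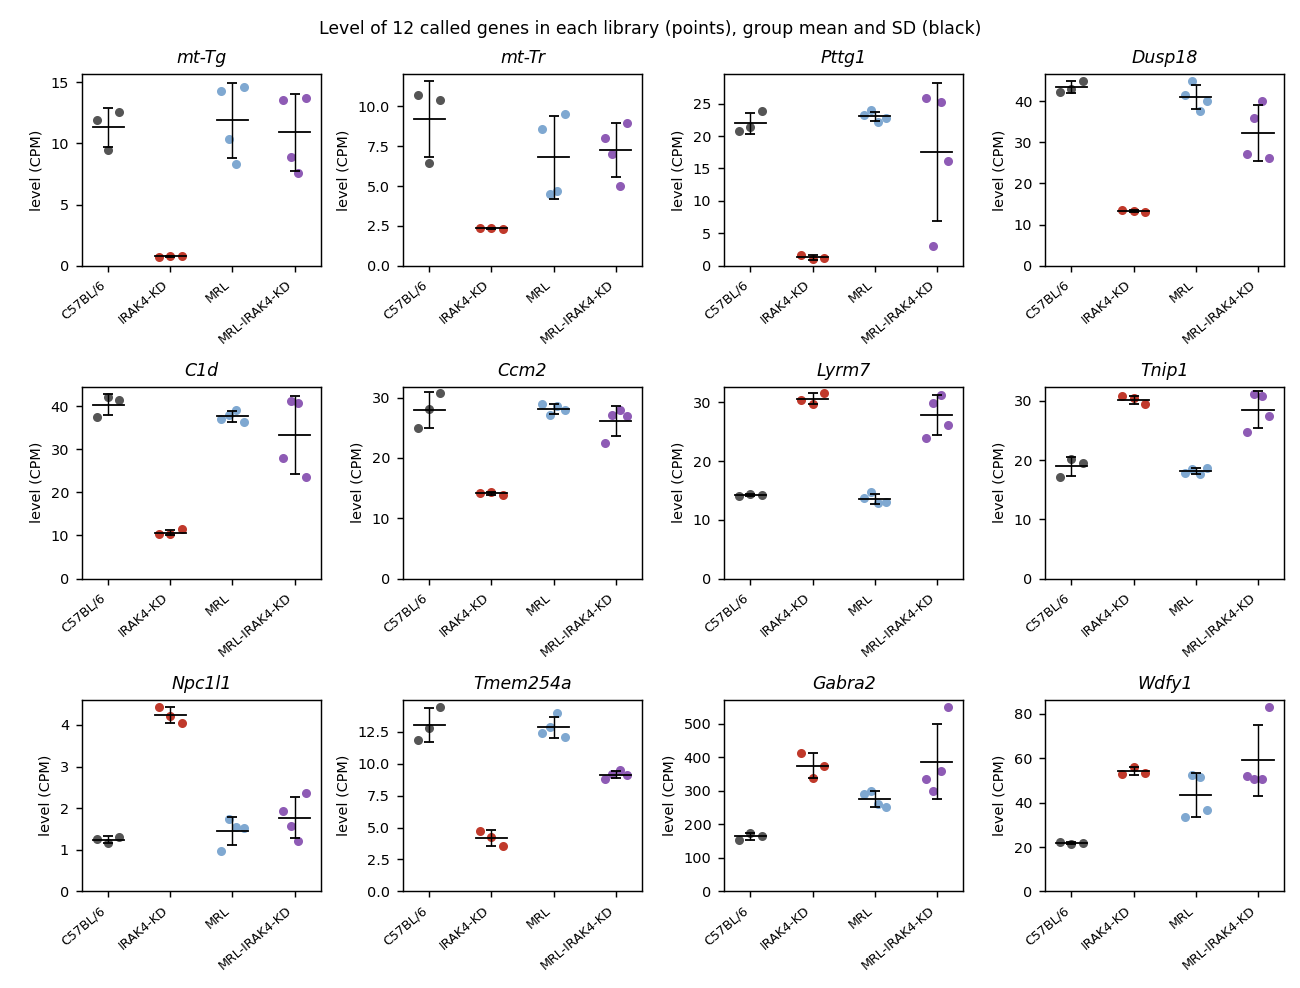
Points give the level in CPM of 12 called genes in each of the 14 libraries by group, and black bars give the mean and SD (n = 3 in C57BL/6 and IRAK4-KD, n = 4 in MRL and MRL-IRAK4-KD). Lyrm7 and Tnip1 were higher in both groups with the mutation, while mt-Tg was at 0.741 to 0.821 CPM in IRAK4-KD and at 7.57 to 13.7 CPM in MRL-IRAK4-KD mice.

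On chromosome 14, 6 called genes lie between 25887506 and 26207041. They are Tmem254a, Tmem254b and Tmem254c, which are copies of each other, and Plac9a, Plac9b and Gm9780, which are copies of each other. All 6 were lower in IRAK4-KD mice. Of the 100-base windows in their GENCODE transcripts, 73.6% of Tmem254a and 100% of Tmem254b and Tmem254c occur in another of the 3, as do 96.5% to 99.7% of the Plac9 group, so the counts of single copies are uncertain. The promoters of the Tmem254 genes share 284 bases letter for letter, printed once to show how alike the copies are (RefSeq, GRCm38.p6, chr14:25927623-25927906, minus strand, 5′ to 3′), with the bases from the start of Tmem254a in capitals. The same run lies at chr14:26206992-26207275 and chr14:26067376-26067659 in Tmem254b and Tmem254c.
Tmem254a: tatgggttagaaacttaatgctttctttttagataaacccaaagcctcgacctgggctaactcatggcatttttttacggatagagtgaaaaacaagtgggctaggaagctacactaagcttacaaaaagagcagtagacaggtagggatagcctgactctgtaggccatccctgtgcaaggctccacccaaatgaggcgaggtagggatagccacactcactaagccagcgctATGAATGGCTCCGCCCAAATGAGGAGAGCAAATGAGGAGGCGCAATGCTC

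Tmem254a had 11.8, 12.8 and 14.4 CPM in C57BL/6 and 4.73, 4.26 and 3.54 CPM in IRAK4-KD mice, 3.11-fold less (log2 fold change -1.64, SE 0.13, adjusted p = 3.16e-05). Tmem254b and Tmem254c followed with log2 fold changes of -1.59 and -1.67. Plac9a had 1.51, 1.62 and 1.22 CPM in C57BL/6 and 0.377, 0.278 and 0.274 CPM in IRAK4-KD mice (log2 fold change -2.23, SE 0.28, adjusted p = 0.00264), and Plac9b and Gm9780 had log2 fold changes of -2.02 and -2.09. The copies thus fell together, each to below its lowest C57BL/6 library, and all 6 remained called without replicate 3 (adjusted p of 0.000433 to 0.0325). In MRL mice Tmem254a was at 12.1 to 13.9 CPM, and in MRL-IRAK4-KD mice at 8.81 to 9.51 CPM, between the C57BL/6 and IRAK4-KD ranges (log2 fold change -0.49, adjusted p = 0.239).

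A further group on chromosome 14, between 69363504 and 69683286, held Gm16867, Gm27177 and Entpd4b. Entpd4b, related to a nucleoside diphosphatase of the Golgi, had 51.2, 57.2 and 57.5 CPM in C57BL/6 and 28.1, 31.3 and 30.8 CPM in IRAK4-KD mice (log2 fold change -0.88, adjusted p = 0.0401, and 0.213 without replicate 3). All of its 100-base windows also occur in Entpd4, which was at 46.7 ± 3.10 CPM (SD, n = 3) and 27.3 ± 1.57 CPM (SD, n = 3) and did not pass the test (adjusted p = 0.204). Gm16867 had 23.1, 21.2 and 26.5 CPM in C57BL/6 and 2.84, 2.93 and 2.47 CPM in IRAK4-KD mice (log2 fold change -3.10, adjusted p = 0.0016). Low levels were also found in mice without the mutation. Gm16867 was at 10.2 CPM in MRL replicate 1, at 2.98 to 5.21 CPM in the other MRL mice and at 2.99 to 3.32 CPM in MRL-IRAK4-KD mice.

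Elsewhere in the genome, named genes higher in IRAK4-KD mice were Gabra2, Wdfy1, Col19a1 and Amy1. Gabra2 (ENSMUSG00000000560.9, chromosome 5, 70957597 to 71095849), the alpha-2 subunit of the GABA-A receptor found at inhibitory synapses of pyramidal neurons, had 153, 174 and 166 CPM in C57BL/6 and 412, 338 and 373 CPM in IRAK4-KD mice. The level was 2.28-fold higher (log2 fold change 1.19, SE 0.18, adjusted p = 0.0163), and the adjusted p was 0.080 without replicate 3. MRL mice were at 251 to 301 CPM and MRL-IRAK4-KD mice at 300 to 551 CPM, so all 8 lay above the C57BL/6 range. Wdfy1, an endosomal FYVE-domain protein described as an adaptor of Toll-like receptor signalling, had 22.3, 21.3 and 21.9 CPM in C57BL/6 and 53.0, 56.1 and 53.5 CPM in IRAK4-KD mice (2.48-fold, log2 fold change 1.31, adjusted p = 0.0171, and 0.080 without replicate 3). It too was above C57BL/6 in all MRL mice, at 33.3 to 52.4 CPM, and all MRL-IRAK4-KD mice, at 50.7 to 83.1 CPM.

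Col19a1, a non-fibrillar collagen made by interneurons and known for synapse formation in the hippocampus, had 14.6, 13.1 and 9.22 CPM in C57BL/6 and 31.1, 33.9 and 37.0 CPM in IRAK4-KD mice (log2 fold change 1.47, adjusted p = 0.0262). Amy1, a starch-digesting amylase, had 32.7, 39.5 and 32.7 CPM against 70.2, 86.5 and 77.0 CPM (log2 fold change 1.16, adjusted p = 0.0271). In MRL and MRL-IRAK4-KD mice these genes were at 9.48 to 20.3 CPM and 22.4 to 39.5 CPM, below every IRAK4-KD library. Amy1 overlaps Rnpc3 on the same strand, with 30.8% of its 100-base windows shared, and Rnpc3 was at 27.9 ± 2.90 CPM (SD, n = 3) and 48.3 ± 18.5 CPM (SD, n = 3, adjusted p = 1). Without replicate 3, neither Col19a1 nor Amy1 passed (adjusted p = 0.161 and 0.131).

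Olfr1346, an olfactory receptor gene on chromosome 7, was the remaining named gene that was lower. It had 0.230, 0.188 and 0.283 CPM in C57BL/6 and 0.017, 0.018 and 0.002 CPM in IRAK4-KD mice (log2 fold change -4.27, SE 0.74, adjusted p = 0.0373, and 0.131 without replicate 3).

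The rule for named genes left out 16 called genes with provisional names outside the Ccl21 region. Some are given here, chosen after their values were seen. Among called genes, Gm21738 and Gm26870 rose the most, with log2 fold changes of 5.43 and 4.99. Their adjusted p was 0.00632 and 0.0373, and 0.0286 and 0.135 without replicate 3. Gm21738 had 0.0623, 0.104 and 0.0787 CPM in C57BL/6 and 0.862, 6.32 and 3.41 CPM in IRAK4-KD mice. In the lupus background the log2 fold changes of Gm21738 and Gm26870 were 2.60 and 2.82, and neither was called (adjusted p = 0.239 and 0.306). Gm27000, a non-coding gene on the X chromosome, had 57.7, 59.3 and 48.9 CPM in C57BL/6 and 265, 341 and 249 CPM in IRAK4-KD mice (log2 fold change 2.36, adjusted p = 0.0016). Of its 100-base windows, 86.5% occur in Meg3, an abundant imprinted RNA of neurons, which was at 5004 ± 253 CPM (SD, n = 3) and 6602 ± 295 CPM (SD, n = 3, adjusted p = 1), so reads of either gene could be counted to the other. 1700029J07Rik on chromosome 8 had 7.0, 7.47 and 5.96 CPM against 16.7, 21.9 and 20.7 CPM (log2 fold change 1.54, adjusted p = 0.00269). In the 8 lupus-prone libraries Gm27000 and 1700029J07Rik were at 21.7 to 61.6 CPM and 4.21 to 7.98 CPM, below every IRAK4-KD library. Gm29491 lies antisense to Tgfb2, had 0.168, 0.164 and 0.140 CPM against 0.572, 0.523 and 0.535 CPM (adjusted p = 0.039, and 0.161 without replicate 3), and the strand setting is not given in the sources used here, so reads of the pair cannot be told apart. Tgfb2 itself, an anti-inflammatory cytokine, had 52.7, 49.5 and 63.1 CPM against 88.8, 80.3 and 89.2 CPM (log2 fold change 0.64, adjusted p = 0.74).

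The Ccl21 region of chromosome 4 and its scaffold copies gave 18 of the 56 calls, all lower in IRAK4-KD mice. Ccl21 is a chemokine that draws dendritic cells and T cells to lymph nodes through CCR7. Named by rule, the largest falls were Gm21541, Ccl21b, Gm13304, Gm10591, the scaffold copy of Ccl21b and Gm17081, with log2 fold changes between -6.98 and -5.52. Ccl21b on chromosome 4 had 1.72, 1.92 and 1.79 CPM in C57BL/6 and 0.0198, 0.0175 and 0.0198 CPM in IRAK4-KD mice. All 100-base windows of the chromosome 4 Ccl21b transcript occur in other genes of the region, so single copies are uncertain. All 18 were also called and lower in MRL-IRAK4-KD than in MRL mice, where 37 genes (0.0972%) were called, 33 of them lower (0.0867%).

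For the 38 called genes outside this region the lupus background gave smaller values. Of these, 33 had the same direction in MRL-IRAK4-KD against MRL mice, 20 of them at an unadjusted p under 0.05, and 3 were called. The share of all genes with the same direction is not given here. At 33 of the 38 genes the fold change differed between backgrounds at an unadjusted p under 0.05, against 4.17% of all genes. The median absolute log2 fold change was 1.79 without the lupus background, and the median in the lupus background, signed by that direction, was 0.47. The genes were selected on the first of these values, which favours its size and so a difference between backgrounds. MRL mice were nearer in log2 level to C57BL/6 than to IRAK4-KD mice at 33 of the 38 genes, and MRL-IRAK4-KD mice were nearer to C57BL/6 at 27.

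**Figure D4:**
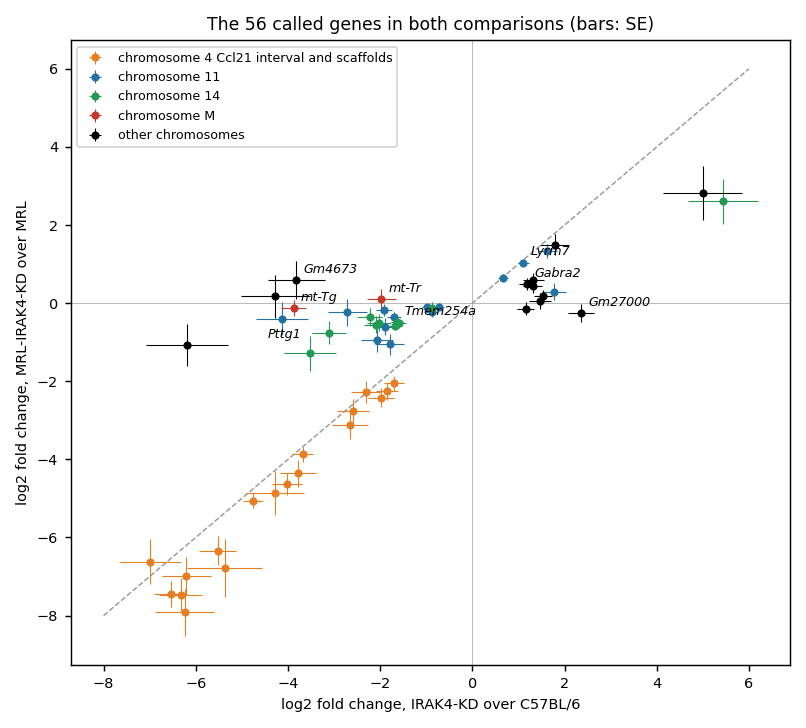
Points are the 56 called genes, with log2 fold changes (IRAK4-KD over C57BL/6 on the x axis, MRL-IRAK4-KD over MRL on the y axis), bars showing SE and the dashed line equality. The 18 Ccl21-region genes lie near the line, while mt-Tg, Pttg1 and Gm27000 lie near 0 on the y axis, at -0.12, -0.39 and -0.25.

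The genes of the IRAK4 pathway itself were described by lists, beside the 0.147% of all genes called and the 3.8% with an unadjusted p under 0.05 (1.66% higher and 2.13% lower). Over the 35 lists without a call by edgeR, DESeq2 called Cldn5, Igkc and Map3k15 and limma-voom called Atf4 and Map3k15 and no other member. Calls on the lists are not given for 2 edgeR fits that called more genes in all. These were the fits of only the 6 libraries (95 genes) and without MRL-IRAK4-KD replicate 4 (106 genes). The Irak and Myddosome list held 25 tested genes and also took in genes outside the Myddosome, such as Irf7 and Ticam1. Of the 25 genes, 0 were called by edgeR and 0 had an unadjusted p under 0.05, with a median log2 fold change of 0.04. Irak1 was at 51.9 ± 2.72 CPM (SD, n = 3) in C57BL/6 and 52.9 ± 1.47 CPM in IRAK4-KD mice, Myd88 at 4.66 ± 0.430 and 4.97 ± 0.544 CPM, and Traf6 at 20.9 ± 1.09 and 22.9 ± 2.90 CPM. The members with the smallest p were the interferon regulator Irf7, the ubiquitin ligase Peli1 and the adaptor Ticam1, with log2 fold changes of -0.52, 0.16 and 0.20. Of 17 Toll-like receptor genes, 0 were called and 1 had an unadjusted p under 0.05, the trafficking chaperone Unc93b1 (log2 fold change -0.27), followed by Tlr4 and Lbp (-0.31 and 0.45). Of 16 interleukin-1 family genes, 0 were called and 0 had such a p. The members of smallest p there were the inhibitory receptor Sigirr, Il1a and the inhibitor Il18bp, with log2 fold changes of -0.70, -0.58 and -0.28. Without replicate 3 none of the genes on these lists had an unadjusted p under 0.05, as 2.68% of all genes did.

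Downstream of the Myddosome, Tnip1 was the only 1 of 29 NF-kappa-B genes called. The feedback genes Nfkbia and Tnfaip3 were at 14.1 ± 1.51 and 6.14 ± 1.09 CPM (SD, n = 3) in C57BL/6 and 14.3 ± 2.55 and 4.90 ± 0.516 CPM in IRAK4-KD mice, and the next smallest p values belonged to Tnip3 and Nfkbib (log2 fold changes of 2.08 and -0.26). Among 28 AP-1 and MAP kinase genes 0 were called, with Junb, at an unadjusted p under 0.05, first by p (log2 fold change -0.88), followed by Dusp2 and Mapk3 (0.55 and -0.22). Of 27 inflammatory cytokines 0 were called, and Tgfb2 and Ifng had an unadjusted p under 0.05. Ifng had 0 counts in all C57BL/6 libraries and at most 0.0375 CPM in IRAK4-KD mice, and Il23a was at most 0.223 CPM. The list of 42 chemokine genes held 4 calls, all Ccl21 genes, and 9 members with an unadjusted p under 0.05. DESeq2 also called Ccl17 and a further copy of Ccl21b, and limma-voom Ccl17 and Ccl20.

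Interferon and antigen presentation genes were mostly on the lower side without calls. Of 48 interferon-stimulated genes, 0 were called by edgeR and 1 had an unadjusted p under 0.05, the GTPase Ifi47 (0.801, 1.26 and 0.742 CPM against 0.325, 0.325 and 0.265 CPM, log2 fold change -1.62). Signs were negative for 45 of the 48, against 51.3% of all genes, with a median of -0.30, or -0.23 without replicate 3, and the next were Mx2 and Oas1b (log2 fold changes of -0.41 and -0.60). Of 25 MHC presentation genes 0 were called and 23 had negative signs, with H2-Q7 and H2-Q6 at log2 fold changes of -1.29 and -1.14 and Ciita at -0.62. Complement (22 genes) and JAK-STAT (27 genes) gave 0 calls, with 1 and 2 members at an unadjusted p under 0.05. These were C4a (log2 fold change -0.37), and Socs1 and Pias4 (-1.11 and -0.44), the inhibitors of cytokine signalling, while Serping1, C4b and Osmr were at -0.52, -0.39 and -0.48. Members of a list share mice and regulation, so that their signs are not independent.

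Lists of brain cell types were described in the same way. In bulk tissue, fewer cells of a type and less RNA per cell cannot be told apart. The endothelium and pericyte list of 24 genes had 0 calls but 8 members, all lower, with an unadjusted p under 0.05 (33.3%, against 2.13% of all genes for this direction). Cldn5, the tight junction claudin of the blood-brain barrier, had 13.7, 12.7 and 12.1 CPM in C57BL/6 and 7.48, 5.87 and 4.41 CPM in IRAK4-KD mice (log2 fold change -1.12, SE 0.26, adjusted p = 0.271). Flt1, a VEGF receptor, had 33.8, 29.3 and 26.9 CPM against 17.4, 21.2 and 18.4 CPM, and the transporter Slco1a4 had 27.0, 26.6 and 22.7 CPM against 14.7, 19.7 and 19.9 CPM. The groups did not overlap at these genes, yet none passed edgeR's adjusted test, while DESeq2 called Cldn5. Without replicate 3, 3 members were lower at an unadjusted p under 0.05 (1.52% of all genes for this direction). The whole list was at a summed 771 to 830 CPM in C57BL/6 and 622 to 748 CPM in IRAK4-KD mice.

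Markers of the meninges were on the same side. The summed level of 22 meningeal and fibroblast genes was 956, 1264 and 516 CPM in C57BL/6 and 871, 654 and 308 CPM in IRAK4-KD mice, with 3 members lower at an unadjusted p under 0.05, the transporters Slc6a13 and Slc6a20a and the enzyme Aldh1a2 (log2 fold changes of -1.23, -0.97 and -1.02). Of 10 border macrophage genes, Mrc1 was at a log2 fold change of -0.78 and Clec10a and Stab1 were at -0.87 and -0.37. The part of meningeal carry-over in the endothelial and macrophage values was not tested.

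The microglia and glia lists held 0 calls by edgeR. Of 20 homeostatic microglia genes 0 were called and Fcrls had a log2 fold change of -0.28, with Mertk and Olfml3 at 0.26 and -0.18. Of 26 genes of activated microglia 0 were called and 0 had an unadjusted p under 0.05, with Lpl, Spp1 and Ccl6 at 0.32, -0.56 and 0.31. The summed level of this list was 2303, 2332 and 2384 CPM in C57BL/6 and 2243, 2153 and 1885 CPM in IRAK4-KD mice. Among its members, 12 had positive and 14 negative signs. Among 26 reactive astrocyte genes, S1pr3 and Cp had log2 fold changes of -0.30 and -0.61 and Srgn -0.43. None of the 15 astrocyte genes had an unadjusted p under 0.05 (Aldh1l1, Gjb6 and Mlc1 at -0.12, 0.15 and -0.09), and of 23 oligodendrocyte genes Enpp6, a marker of newly formed oligodendrocytes, was at 0.56, with Cldn11 and Opalin at 0.27 and -0.40. The oligodendrocyte list had 18 positive and 5 negative signs, and the groups did not overlap at 8 of its genes, as at 11.2% of all genes. None of these members passed the adjusted test.

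Neuronal lists were measured next. Of 29 GABA receptor and interneuron genes only Gabra2 was called, and Gad2 and Gad1, the enzymes that make GABA, had log2 fold changes of 0.42 and 0.26. Of 33 glutamate receptor genes 0 were called, with the NMDA receptor subunits Grin2a at 0.37 and Grin3a at -0.29 and the metabotropic receptor Grm2 at 0.30. Among 34 subfield markers 0 were called and 4 were higher at an unadjusted p under 0.05, led by Map3k15 (5.35, 4.24 and 4.60 CPM against 7.40, 9.39 and 8.33 CPM, log2 fold change 0.82, adjusted p = 0.15), Wfs1 (0.33) and Dsp (0.86). Of 29 immediate early genes 0 were called, with a median of -0.27 and with Ier2 and Junb at -1.01 and -0.88 and Nptx2 at 0.55. Of 17 neurotrophin genes 0 were called and 5 were higher at an unadjusted p under 0.05, among them Ntrk3 (0.30) and Gdnf (1.60). Without replicate 3 these counts were 2 for the subfield list and 3 for the neurotrophin list. Gdnf was at 0.670 CPM in replicate 3 against at most 0.230 CPM in the other 5 libraries. Of 24 neurogenesis genes 0 were called, with the stem cell filament Nes at -0.43 and Igfbpl1 and Eomes at 1.56 and 1.33.

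Lists of physiological state had 0 calls by edgeR. The clock genes Per3, Bhlhe41 and Dbp had log2 fold changes of 0.40, 0.30 and 0.34, with 3 of 20 members higher at an unadjusted p under 0.05. The glucocorticoid-induced genes Hif3a, Sgk1 and Tsc22d3 had log2 fold changes of 1.08, 0.48 and 0.39, with 4 of 21 members higher at that threshold, and 3 without replicate 3 (1.16% of all genes). In the heat shock and unfolded protein list of 26 genes, Atf4 and Hspa1a were at -0.51 and -0.42 and Hspa5 at 0.42, with 2 members lower and 1 higher at an unadjusted p under 0.05. Without replicate 3 the split was 1 lower and 3 higher, and the median of the list was 0.13 with all libraries and 0.20 without it. The 15 genes of the mitochondrial list, its messenger and ribosomal RNAs, had a median of -0.11 and no member with an unadjusted p under 0.05, with mt-Nd1 and mt-Co3 at -0.19 and -0.18.

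Markers of neighbouring regions set single libraries apart. Striatal markers summed to 237 to 266 CPM in 5 libraries and to 835 CPM in the library labelled IRAK4-KD replicate 3. The dopamine receptor Drd2 had 1.87, 2.88 and 2.13 CPM in C57BL/6 and 2.48, 2.75 and 20.3 CPM in IRAK4-KD mice. For the 17 striatal genes tested, 9 had an unadjusted p under 0.05 and the median log2 fold change was 1.09, but 0 and -0.05 without replicate 3. Adora2a and Rasd2, the others of smallest p, had log2 fold changes of 2.19 and 0.52 with that library and -0.30 and 0.25 without it. Choroid plexus markers summed to 482 to 783 CPM in 5 libraries and to 2212 CPM in IRAK4-KD replicate 2, where Ttr, the thyroxine carrier of the choroid plexus, was at 1327 CPM against 81.3 to 392.3 CPM in the others. None of the 18 choroid plexus genes had an unadjusted p under 0.05, with Igf2, Kl and Slco1a5 at -0.53, 0.74 and 0.92.

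The remaining lists of other tissues also had 0 calls by edgeR. Of 11 ependymal and 16 pituitary genes, 0 had an unadjusted p under 0.05, and Mia, Tmem212 and Foxj1 were at 0.78, 0.32 and 0.19 and Fshb, Gh and Trh at -5.01, -4.49 and -1.82. Fshb had counts in a single C57BL/6 library only, at 0.0271 CPM. Among 19 thalamic and 19 neocortical genes, Lef1 and Osr1 were at -0.57 and -0.79, with Chrnb4, Prkcd, Rprm and Vgf at 1.37, 0.36, -0.51 and -0.34. The 18 blood genes had a median of 0.18, and the globins Hbb-bt, Hbb-bs and Hba-a2 were at -1.15, -0.98 and -1.17. Of 27 lymphocyte genes 5 had an unadjusted p under 0.05, 4 lower and 1 higher. Without replicate 3, 4 were lower at that threshold (1.52% of all genes for this direction) and 0 higher. The immunoglobulin light chain Igkc had 4.70, 9.93 and 1.33 CPM in C57BL/6 and 0.290, 0.200 and 0.0703 CPM in IRAK4-KD mice (log2 fold change -4.84, SE 1.02, adjusted p = 0.17), and the heavy chain Ighg2b was at a log2 fold change of -5.08. Cd4 was at 5.98 CPM in replicate 3 and at most 0.352 CPM in the other 5 libraries.

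**Figure D5:**
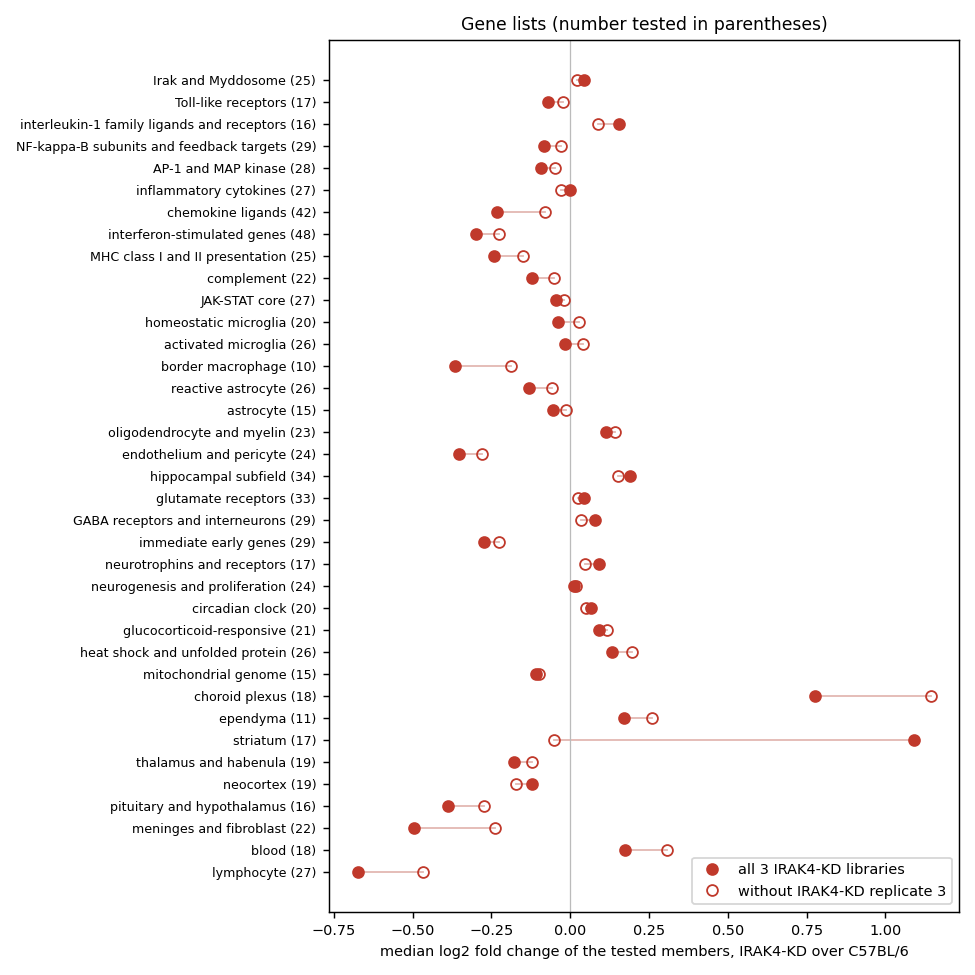
For each gene list, the filled point gives the median log2 fold change (IRAK4-KD over C57BL/6) of the tested members and the open point the same without IRAK4-KD replicate 3. Most lists lie within 0.5 of 0, lymphocyte, choroid plexus and striatum are at -0.67, 0.78 and 1.09 with all libraries, and striatum is at -0.05 without replicate 3.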

How the data were processed

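Hippocampal poly(A) RNA was sequenced in 14 libraries. The authors aligned reads to mm10 and counted them, the submitters' processing notes naming HISAT2 2.1.0, SAMtools 1.9, StringTie 2.1.0, R 4.0.5 and DESeq2 1.30.1, and deposited tables of raw counts, 1 by gene and 1 by transcript. A SMART-seq preparation with single-end reads is described in the methods, whereas the labels name a KAPA HyperPrep mRNA kit. All 55536 Ensembl identifiers match GENCODE M21, and 97 spike-in and 26248 other rows stayed out of library sizes and tests.

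A gene needed 10 or more counts summed over libraries. The fit was edgeR 4.0.16 under R 4.3.3 (quasi-likelihood, robust, TMM, a single model of 4 groups), with p adjusted by the Benjamini-Hochberg method over all genes tested and called at 0.05. The paper shows each library as 1 mouse, so p-values rest on the spread between mice. This spread was estimated over all 4 groups, and thus not from the C57BL/6 and IRAK4-KD mice alone. The MRL and MRL-IRAK4-KD mice also enter the p-values of IRAK4-KD against C57BL/6. The 56 called genes became 95 with only the 6 libraries and 106 without MRL-IRAK4-KD replicate 4. A list member was described by its own fit, with no test over a list. Fits were tested on simulated data. As alternatives, scaling by RLE or by library size alone was tried, as were DESeq2 1.42.0, limma 3.58.1 (voom with quality weights), no filter, filterByExpr, only the 6 libraries, without MRL-IRAK4-KD replicate 4, the replicate number as a block, halved counts, gene sums of the transcript table and each library left out. The list counts without IRAK4-KD replicate 3 and the summed levels of choroid plexus and striatum were added after seeing the data.

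Named genes were Irak4, Fas, up to 15 called genes in each direction by fold change whose groups did not overlap, leaving out provisional names and the Ccl21 region of chromosome 4 with 1 Mb on either side, 6 genes of that region, and 3 members per list with the smallest p, of which 1 is not reported here. The comparison, the 38 lists and these rules were chosen with earlier results of these data known. A list of sex-linked genes served only as a check of the labels. Sequences come from GENCODE M21 and RefSeq (GRCm38.p6), and 29 called genes had a promoter entry by symbol. The CPM, the windows shared between transcripts and the figures were computed with Python 3.11.15, pandas and matplotlib 3.10.9.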

Additional observations from a re-analysis of the deposited data

Results flagged for a closer look

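mt-Tg changed differently in the 2 backgrounds, with a difference of log2 fold changes of -3.75 (adjusted p = 0.00127, edgeR's quasi-likelihood test of the interaction), lower in 3 of 3 IRAK4-KD mice while the MRL-IRAK4-KD mice lay on both sides of the C57BL/6 levels.

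Among the counts of single transcripts, which no comparison tests, the shorter Fas transcript had 514 counts in IRAK4-KD replicate 3 against at most 7 in C57BL/6.

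Among 48 groups of 4 lupus-prone mice examined, 3 held a library far from the others by Dixon's test, and chance flags about 1 in 20 groups. These were Wdfy1 at 83.1 CPM and Amy1 at 22.4 CPM in MRL-IRAK4-KD replicate 4, the library that also stood apart on the first principal component of all 14 libraries (score 122.4), and Olfr1346 at 0.280 CPM in MRL replicate 2.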

How the results depend on the processing

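The count of 56 genes was within 1.5 times under RLE size factors, library size only, no filter, filterByExpr, halved counts and the replicate block (48 genes, 47 shared), and the transcript table gives the same counts by construction. It rose to 166 with DESeq2, 145 with limma-voom, 95 with only the 6 libraries, 106 without MRL-IRAK4-KD replicate 4 and 1445 at an unadjusted p, and lay between 33 and 38 with 1 C57BL/6 or IRAK4-KD library left out, 28 genes being called each time. Leaving out any of C57BL/6 replicates 1 and 3 and IRAK4-KD replicates 1, 2 and 3 moved it by over 1.5 times, to 34, 36, 36, 35 and 33. Without IRAK4-KD replicate 3, the 33 genes became 140 with DESeq2, 76 with limma-voom and with only the remaining C57BL/6 and IRAK4-KD libraries, 81 without MRL-IRAK4-KD replicate 4, 24 with the replicate block, 1011 unadjusted and 14 to 21 with a further library left out, where a lone IRAK4-KD sample is assumed to vary like the other groups. The 37 genes called in the lupus background became 395, 213 and 4329, and the 1 gene differing between backgrounds became 59, 22 and 1588, with DESeq2, limma-voom and the unadjusted p, 4 with no filter and 2 with the replicate block. The cause of these differences was not tested.

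Same-numbered C57BL/6 and IRAK4-KD libraries correlated at -0.0225, 0.101 and -0.0828 in their deviations from the group means. Libraries of unlike number correlated at -0.0867 to 0.123. These values gave no sign of pairing by number, but with 3 libraries in a group they cannot exclude it. The 28 named genes kept their direction in every alternative run, and 16 stayed called in all 17.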
